A study of Mus musculus with 8 samples.

Results

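The Tie receptors, the angiopoietins that bind them and their closest partners were measured on Affymetrix arrays of endothelial cells sorted from mouse liver. The 6 genes, Tek, Tie1, Angpt1, Angpt2, Ptprb and Foxo1, were taken by symbol from 21160 genes that the arrays measured with a probe set of a single symbol. Each of the 6 had 1 such probe set, so there are 6 probe sets of 21370 in all. The YFP+ group held 4 arrays of marrow-derived cells and the YFP- group 4 arrays of resident cells. Both came from C57BL\6N mice irradiated at 8 weeks of age with 9 Gy, given as 2 fractions of 4.5 Gy, and injected 2 hours later with 5000 YFP-labelled LSK cells, a marrow fraction rich in blood stem and progenitor cells. At 1 month after the transplant, CD45-negative liver cells with CD31 and CD146 on their surface were sorted and then divided by YFP, which here marks cells of donor origin. Irradiation and transplantation are thus shared by both groups. The sources used here do not state what drives YFP, how many cells a sort held or whether animals were pooled. The comparison asks how transcript levels differ between endothelial cells of marrow origin and the resident cells around them.

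TEK, also called TIE2, is the receptor tyrosine kinase through which angiopoietins steady or loosen blood vessels. Angiopoietin 1, made largely by cells around the vessel and by some blood cells, activates it, while angiopoietin 2, stored and released by endothelial cells themselves, activates it weakly or blocks it depending on context. TIE1 is a related receptor that binds neither ligand strongly and modulates TEK, PTPRB (VE-PTP) removes phosphate from TEK, and active TEK signals through AKT to keep the transcription factor FOXO1 out of the nucleus. FOXO1 in turn can switch on Angpt2.

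Tek and Tie1, the receptor genes, lie apart on chromosome 4. Their RefSeq promoter windows in GRCm38.p6 are shown because these are the receptors whose values separated the groups. Each window runs from 250 bases before to 50 bases after the start site. Capitals mark GGAA, the core of sites bound by ETS factors, which are known regulators of endothelial genes, or its reverse complement TTCC.
Tek, chr4:94739039-94739338, plus strand: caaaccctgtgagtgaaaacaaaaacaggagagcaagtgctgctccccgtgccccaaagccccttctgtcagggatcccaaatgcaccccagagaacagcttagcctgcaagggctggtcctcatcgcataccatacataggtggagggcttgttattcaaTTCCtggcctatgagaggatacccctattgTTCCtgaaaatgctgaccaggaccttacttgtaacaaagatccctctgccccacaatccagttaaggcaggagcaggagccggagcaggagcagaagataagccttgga
Tie1, chr4:118489800-118490099, minus strand: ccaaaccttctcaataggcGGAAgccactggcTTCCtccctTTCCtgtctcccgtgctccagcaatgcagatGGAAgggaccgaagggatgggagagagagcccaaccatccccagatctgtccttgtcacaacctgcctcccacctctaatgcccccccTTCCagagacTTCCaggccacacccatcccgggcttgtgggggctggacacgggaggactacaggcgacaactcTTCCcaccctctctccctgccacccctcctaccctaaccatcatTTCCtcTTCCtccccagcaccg
The Tek window held 2 matches and the Tie1 window 9. Of 32851 windows of the same length, 96.0% held at least 1 match, with a median of 3, and 1.59% held 9 or more. The window of Tek also held 1 match to AGATAA, the core of a GATA site, or its reverse complement TTATCT, as 11.2% of windows did, and that of Tie1 none. Neither held TGTTTAC, a FOXO core, or its reverse complement GTAAACA, which were found in 3.65% of windows. The Foxo1 window, on chromosome 3, held 2 matches to GGAA or TTCC and none to the other motifs. The table of windows gave entries for these 3 of the 6 genes. A match is a stretch of letters and no binding was measured here.

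Levels are the authors' normalized intensities, in arbitrary units or as their log2. Negative-control features of an array give its limit: the 95th percentile of these controls was 425 to 525 units on YFP+ and 506 to 550 units on YFP- arrays, and a gene below it is called dim here. Of the 6 genes, Tek, Tie1, Ptprb and Foxo1 lay above the limit on all 8 arrays, whereas Angpt1 and Angpt2 lay below it on all 8. The 11 measured pan-endothelial markers and the 9 of liver sinusoidal endothelium were above the limit on every array of both groups, so RNA of the labelled cell type was present on each. Other cell types also left a signal. The summed intensity of 12 pan-leukocyte markers was 5111 to 16814 units on YFP+ arrays, against 1469 to 2136 units on YFP- arrays. Likewise 10 megakaryocyte and platelet markers summed to 4644 to 5674 units on YFP+ and 1994 to 2109 units on YFP- arrays. For 10 bile duct markers the sums were 7106 to 10442 units on YFP+ and 2706 to 4031 units on YFP- arrays. YFP+ replicate 2 had the highest leukocyte sum. In these bulk samples fewer cells of a type and less RNA per cell cannot be told apart.

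Tek was lower in YFP+ cells, and it was the 1 gene of the 6 to pass the test. In YFP+ replicates 1 to 4 its intensity was 1233, 1005, 1111 and 1320.2 units, against 1872, 1872, 1793 and 2161 units in YFP- replicates 1 to 4. Every YFP+ value lay below every YFP- value, with replicate 2 the lowest of the YFP+ arrays and replicate 4 the highest array of each group. On the log2 scale the YFP+ mean was 10.18 ± 0.17 and the YFP- mean 10.91 ± 0.12 (SD, n = 4 each). Tek thus fell by 0.73 log2 (SE 0.13, 95% interval -1.0 to -0.45), to 60.5% of its YFP- level, a 1.65-fold lower value (limma, Benjamini-Hochberg adjusted p = 0.0224 over 21160 genes). Only 0.813% of all genes had a more negative difference. Of all genes, 0.336% were called lower, and the count of 1 among these 6 rests on Tek alone. Among the 3149 genes whose mean lay above the limit, 1.08% were called lower. The call ended without YFP- replicate 1, 2, 3 or 4 (limma adjusted p = 0.0678, 0.0767, 0.0564 and 0.0802), while the difference stayed between -0.76 and -0.67 in those fits.

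Tie1, the co-receptor gene, also read lower on every YFP+ array. Its intensity was 1179.8, 1099.8, 1258 and 1049 units in YFP+ replicates 1 to 4. In YFP- replicates 1 to 4 it was 1585, 1669, 1434 and 1752 units. The groups did not overlap here either. The YFP+ log2 mean was 10.16 ± 0.11 and the YFP- log2 mean 10.65 ± 0.12 (SD, n = 4 each), a difference of -0.49 (SE 0.12, 95% interval -0.75 to -0.23) that missed the threshold (limma adjusted p = 0.0750). It passed without YFP+ replicate 3 (limma adjusted p = 0.0415), with array weights (0.0256) and with dim genes left out before the fit (0.0366). It missed the threshold in the other 7 of 9 settings that used all arrays (limma adjusted p up to 0.156). The other 7 of 8 fits without 1 array missed it too (limma adjusted p up to 0.216).

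Ptprb, whose product dephosphorylates TEK at endothelial junctions, had a smaller difference. It read 3780.5, 3158, 3719.6 and 3639 units in YFP+ replicates 1 to 4 and 4461, 4318, 4302 and 4238 units in YFP- replicates 1 to 4. The YFP- values lay close together and all above the YFP+ values, of which replicate 2 was the lowest. The log2 difference was -0.28 (SE 0.11, 95% interval -0.52 to -0.04, limma adjusted p = 0.269) and did not pass. Groups that do not overlap with the YFP+ values below were thus found for 3 of the 6 genes, Tek, Tie1 and Ptprb. Such a pattern was found for 3.82% of all genes, and for 11.5% of those above the limit. It was also found for 6 of the 11 measured pan-endothelial markers and for 4 of the 9 markers of liver sinusoidal endothelium.

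Foxo1, the transcription factor held back by TEK signalling, overlapped between the groups. It read 662, 658, 558 and 513 units in YFP+ replicates 1 to 4, against 701, 645, 736 and 696 units in YFP- replicates 1 to 4. YFP+ replicates 1 and 2 lay within the YFP- range and replicates 3 and 4 below it. The log2 difference was -0.22 (SE 0.12, 95% interval -0.50 to 0.05, limma adjusted p = 0.490), and the interval holds both 0 and a fall of 0.50.

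**Figure D1:**
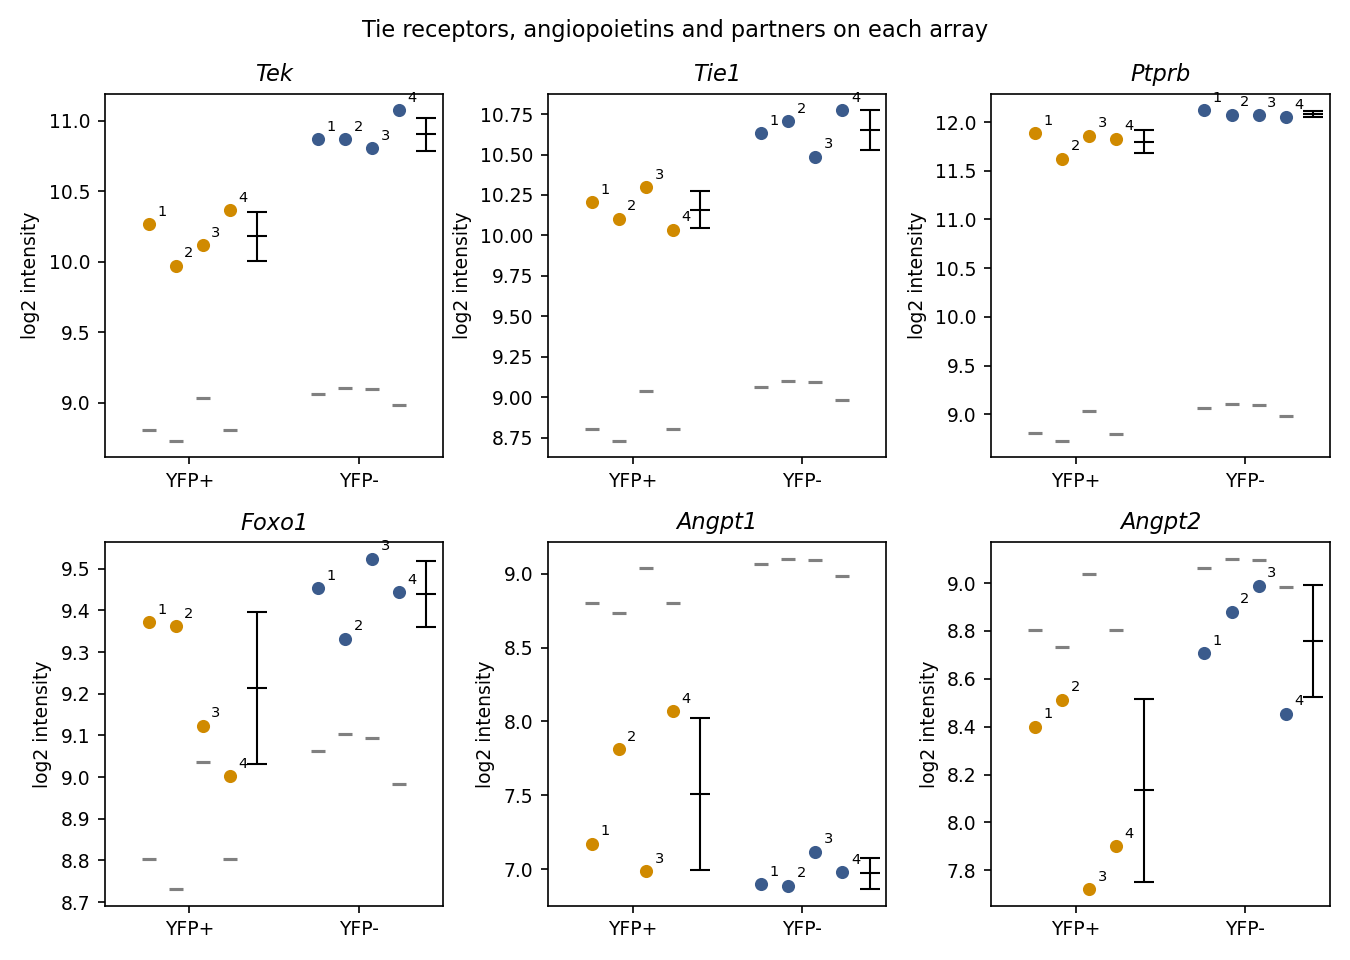
Log2 intensity (vertical axis, scaled for each gene) of the 6 genes on the 4 YFP+ arrays (orange, left) and the 4 YFP- arrays (blue, right), with replicate numbers; black bars are the mean ± SD and grey dashes each array's 95th percentile of negative controls. Tek, Tie1 and Ptprb separate the groups, and all values of Angpt1 and Angpt2 lie below the dashes.

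The ligand genes were both dim, so no fold is given for them, and their log2 differences are between values within the range of the negative controls. Angpt2, the endothelial ligand, read 338, 365, 211 and 239 units in YFP+ replicates 1 to 4, against 418, 471, 508 and 351 units in YFP- replicates 1 to 4. The groups overlapped, since YFP+ replicate 2 lay above YFP- replicate 4. Its YFP+ values exceeded 80.5% to 93.2% of the negative controls of their arrays, and its YFP- values 90.04% to 94.1%. The log2 difference was -0.62 (SE 0.20, 95% interval -1.06 to -0.19, limma adjusted p = 0.174) and did not pass.

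Angpt1, the activating ligand, was the 1 gene of the 6 with a positive difference. It read 144, 225, 127 and 269 units in YFP+ replicates 1 to 4, against 119, 119, 139 and 126 units in YFP- replicates 1 to 4. YFP+ replicates 2 and 4 stood above all other arrays, replicate 1 lay just above the YFP- range and replicate 3 within it. The YFP+ values exceeded 61.3% to 86.6% of the negative controls, and the YFP- values 46.0% to 56.6%, in the middle of background. The log2 difference of 0.54 (SE 0.22, 95% interval 0.04 to 1.03) did not pass (limma adjusted p = 0.319). It was 0.35 without YFP+ replicate 4, within a range of 0.35 to 0.71 without 1 array.

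A negative difference was measured for 5 of the 6 genes, as for 49.6% of all genes and for 60.4% of those above the limit. Their median difference was -0.38.

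Pericytes and stellate cells, known sources of angiopoietin 1 in tissue, were represented by 10 markers, of which none was called. Their summed intensity was 1809 to 3089.7 units on YFP+ and 1685 to 1859.9 units on YFP- arrays. Their mean log2 level was 7.57, 7.51, 7.33 and 7.70 in YFP+ replicates 1 to 4, and 7.39, 7.25, 7.28 and 7.40 in YFP- replicates 1 to 4, highest and lowest on the same YFP+ arrays as Angpt1. Of these markers, Dcn, a matrix proteoglycan gene of fibroblasts and stellate cells, exceeded the limit on 3 of 4 YFP+ arrays, and no marker of the list did so on a YFP- array. Every other marker of the list was dim on all arrays, as Angpt1 was, so their mean level lies largely within background. Hepatocyte markers had mean log2 levels of 8.22, 8.69, 7.99 and 8.54 in YFP+ replicates 1 to 4, also higher in replicates 2 and 4, and 7.61 to 7.78 in YFP- cells. The pan-leukocyte markers followed the same order, with mean log2 levels of 8.68, 9.87, 8.11 and 8.81 in YFP+ replicates 1 to 4 and 6.85 to 7.17 in YFP- cells. The part of these cell types in the Angpt1 values was not tested.

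**Figure D2:**
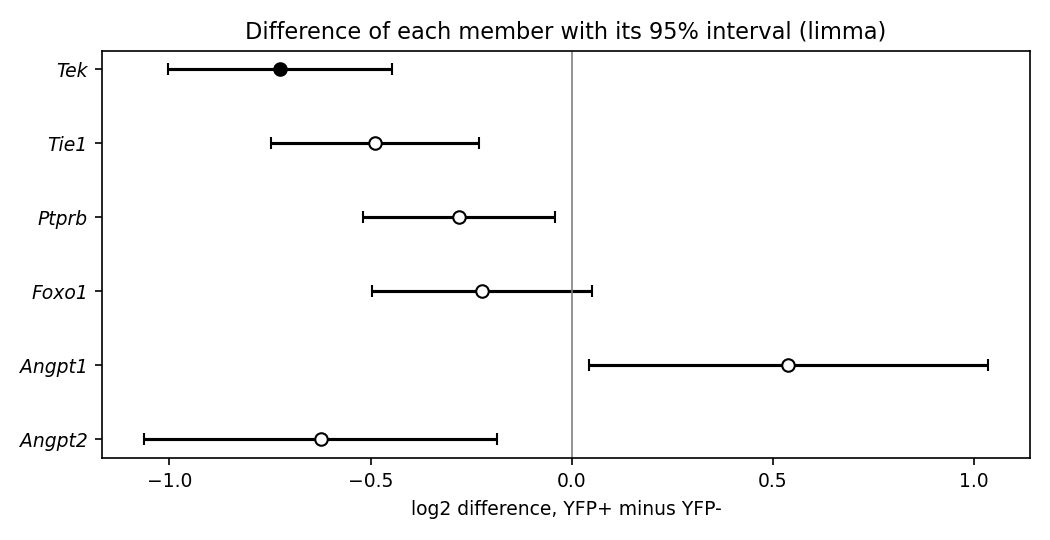
Log2 difference, YFP+ minus YFP-, for the 6 genes (points) with 95% intervals from limma (bars); the filled point passed the adjusted threshold of 0.05. Tek, at -0.73, is the filled point, Foxo1 is the 1 gene whose interval reaches across 0, and Angpt1 alone lies to the right.

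Within arrays, pairs of the 6 genes were compared for unequal change by an exact two-sided permutation test of their log2 ratio, over 3 pairs. For 4 arrays against 4 the smallest p it allows is 0.0286. The ratio of Tek to Ptprb, receptor to phosphatase, was lower in YFP+ cells by 0.45 log2 (difference -0.45, exact permutation p = 0.0286, adjusted p = 0.0429 over the 3 pairs), with no overlap between the groups. The ratio of Tek to Tie1 differed by -0.24 (exact permutation p = 0.143), and the groups overlapped. The ratio of Angpt2 to Angpt1 was lower in YFP+ cells by 1.16 log2 (difference -1.16, exact permutation p = 0.0286, adjusted p = 0.0429 over the 3 pairs), again without overlap, but it sets 2 dim genes against each other. Neither of these pairs passed without YFP- replicate 1, 2, 3 or 4 (adjusted exact permutation p = 0.0857 in each case). With 1 array left out the smallest exact p is again 0.0286, and a pair that alone reaches it cannot pass over 3 pairs. These fits therefore cannot show whether the Tek to Ptprb result rests on 1 YFP- array. Its groups did not overlap in any of them.

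Pan-endothelial markers were set beside the 6 genes. All 11 measured markers had negative differences (median -0.28), as 60.4% of genes above the limit did, and none of the 11 was called. The mean log2 level of the markers was 10.94, 10.63, 11.05 and 10.84 in YFP+ replicates 1 to 4, and 11.15 to 11.20 in YFP- cells. The array with the lowest endothelial level, YFP+ replicate 2, had the highest pan-leukocyte level (9.87, against 8.11 to 8.81 in the other YFP+ and 6.85 to 7.17 in YFP- arrays). It also had the lowest Tek and Ptprb, whereas the lowest Tie1 was in YFP+ replicate 4. Tek was set against the marker mean array by array, a comparison chosen after the data were seen. Relative to that mean it stood at -0.67, -0.66, -0.94 and -0.48 log2 in YFP+ replicates 1 to 4, against -0.33, -0.29, -0.34 and -0.12 in YFP- replicates 1 to 4. These groups did not overlap, and the difference was -0.42 (exact permutation p = 0.0286, the smallest possible). Once adjusted over the 6 genes this exact permutation p became 0.171, which missed the threshold. A gene that alone reaches the smallest p cannot pass over 6 genes, so the miss was set by the number of arrays. The same difference was -0.18 for Tie1 (exact permutation p = 0.0857), 0.03 for Ptprb (0.543) and 0.08 for Foxo1 (0.714). By this measure Ptprb lay within 0.03 log2 of the markers' own shift. For the dim ligands it was -0.32 for Angpt2 (exact permutation p = 0.314) and 0.84 for Angpt1 (0.0571). CD31 and CD146, the surface proteins used in the sort, are encoded by Pecam1 and Mcam, whose differences were -0.23 and -0.63 (limma adjusted p = 0.367 and 0.297). Flt1, another pan-endothelial marker, had a difference of -0.57 without overlap (limma adjusted p = 0.0663). For the 9 liver sinusoidal markers the log2 differences ran from -0.75 to -0.15, with a median of -0.23, and no gene passed. The lowest was that of Gpr182 (limma adjusted p = 0.197), also without overlap. Of both marker lists, only Gpr182 fell further than Tek (-0.73), with a wider YFP+ spread (SD 0.58, against 0.17 for Tek).

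**Figure D3:**
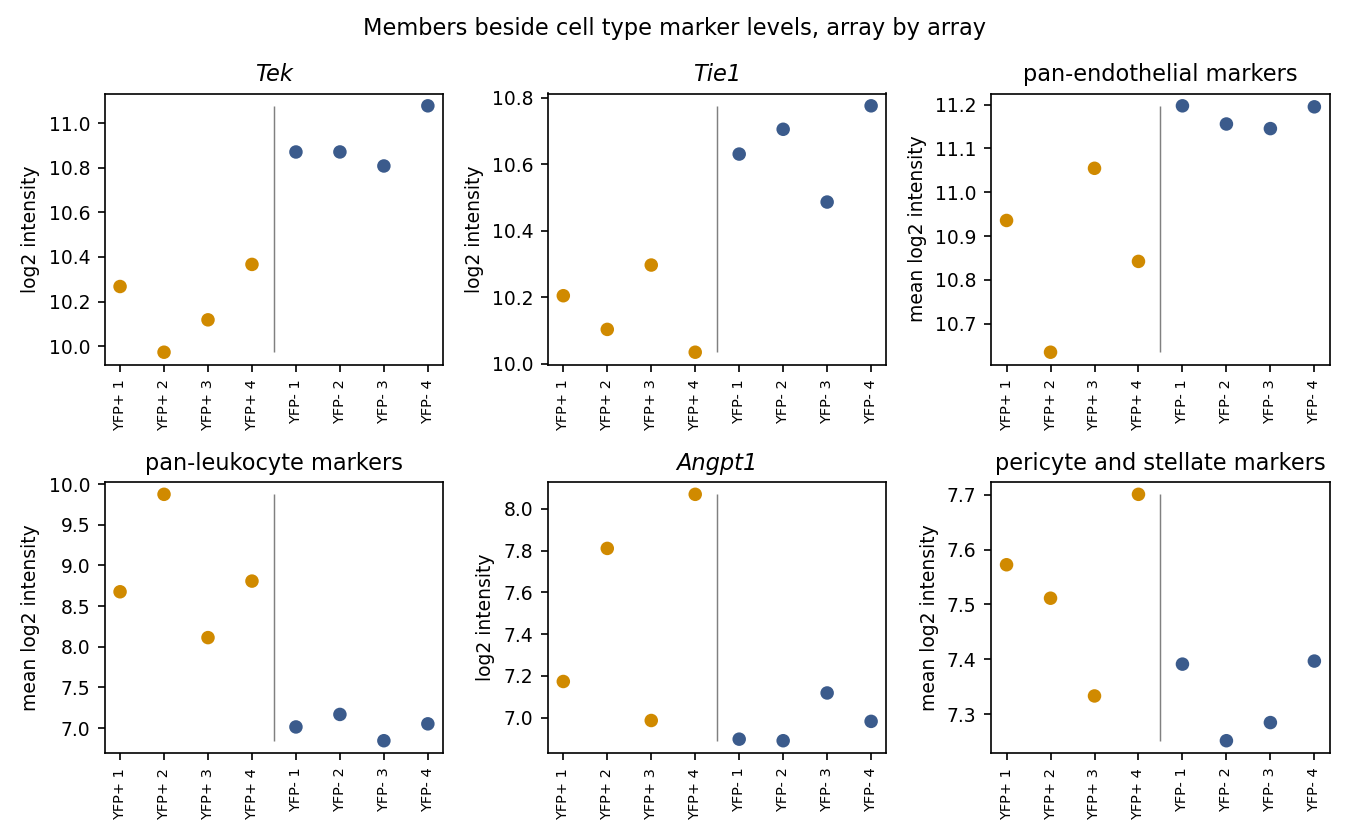
Log2 intensity of Tek, Tie1 and Angpt1 and mean log2 intensity of 3 marker lists (vertical axes, scaled for each panel) on YFP+ arrays 1 to 4 (orange, left of the line) and YFP- arrays 1 to 4 (blue, right). YFP+ replicate 2 has the lowest endothelial (10.63) and the highest leukocyte mean (9.87), and Angpt1 is high on YFP+ replicates 2 and 4.

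The genes around the receptors did not move as a block. Of 20 measured genes that bind to or signal with the Tie receptors, 2 were called higher, none lower, and the median difference was 0.06, beside 0.0019 over all genes, of which 1.27% were called higher. Grb7, an adaptor that docks on activated TEK, averaged 8.79 in YFP+ and 7.83 in YFP- cells on the log2 scale, higher by 0.96 (limma adjusted p = 0.0386), with 2 YFP+ arrays and no YFP- array above the limit. Pak1, a kinase of cell motility that is recruited with the adaptor NCK1, averaged 7.48 in YFP+ and 6.66 in YFP- cells, a log2 difference of 0.82 (limma adjusted p = 0.00702), and was dim on all 8 arrays. Nck1 itself had a difference of -0.68 (limma adjusted p = 0.0896) and Nos3, which encodes the endothelial nitric oxide synthase activated by AKT, one of -0.56 (limma adjusted p = 0.137), neither of which passed. Akt1 and Akt2, which encode kinases between TEK and FOXO1, had differences of 0.48 and -0.12 (limma adjusted p = 0.440 and 0.919). Angpt4, the remaining ligand gene, was dim on all arrays (difference -0.23, limma adjusted p = 0.565).

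Integrins that can bind angiopoietins and proteases that shed Tie receptors made a list of 8 measured genes, of which 1 was called higher and none lower. Over all genes 1.27% were called higher and 0.336% lower. Of the 8 differences, 5 were negative (median -0.01). Itgb5, an integrin subunit, averaged 8.29 in YFP+ and 7.50 in YFP- cells, higher by 0.80 log2 (limma adjusted p = 0.0125), though dim on every array. Mmp14, which encodes a membrane protease that can cleave TEK, had a difference of -0.65 that did not pass (limma adjusted p = 0.117), and its groups did not overlap. None of the 7 angiopoietin-like genes exceeded the limit on any array, and none was called. Their differences lay between -0.22 for Angptl8 and 0.18 for Angptl7.

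Among the R3 receptor phosphatases, the family of PTPRB, another member was higher in YFP+ cells. Of the 5 measured, 1 was called higher and none lower, beside 1.27% of all genes called higher and 0.336% called lower. Ptprj, which encodes CD148, a phosphatase of blood and endothelial cells, averaged 9.22 ± 0.17 on YFP+ arrays and 7.49 ± 0.48 on YFP- arrays (SD, n = 4 each), higher by 1.73 log2 (limma adjusted p = 0.00570). It lay above the limit on all 4 YFP+ arrays and on no YFP- array. Set against the limit of the YFP- arrays in place of their values, it was at least 1.12-fold higher. Ptpro, Ptprh and Ptprq were dim on every array and were not called. The pan-leukocyte, platelet and bile duct sums and the hepatocyte marker levels above were also higher on every YFP+ than on every YFP- array. The part of these cell types in the Ptprj, Pak1, Itgb5 and Grb7 values was not tested.

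Downstream of FOXO1, 1 of 21 measured target genes was called higher and none lower, with a median difference of 0.02, beside 1.27% of all genes called higher and 0.336% called lower. Only 6 of the 21 had a mean above the limit, so this median is mostly that of dim genes. Irs2, an insulin receptor substrate gene, averaged 8.72 in YFP+ and 7.96 in YFP- cells, higher by 0.76 log2 (limma adjusted p = 0.0306), with 1 YFP+ array and no YFP- array above the limit. The cell cycle inhibitor gene Cdkn1b and the cyclin G2 gene Ccng2 had differences of 0.45 and 0.43 with groups that did not overlap (limma adjusted p = 0.189 and 0.164). Cdkn1b was above the limit on 1 YFP- array and Ccng2 on 0. The target genes Fbxo32 and Igfbp1 did not overlap either, but in the lower direction. Their differences were -0.39 and -0.25 (limma adjusted p = 0.146 and 0.349), and both were dim on all arrays. Foxo3, Foxo4 and Foxo6, the other genes of the family, had differences of 0.11, 0.16 and 0.21 (limma adjusted p = 0.850, 0.670 and 0.533) and were dim on all arrays.

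None of the 6 measured junction genes or PTPRB substrates was called, and all 6 differences were negative. Over all genes 1.27% were called higher and 0.336% lower. A negative difference was measured for 49.6% of all genes and for 60.4% of those above the limit. Cdh5, Pecam1, Kdr and Cldn5 of this list are also among the pan-endothelial markers above, so the lists are not independent. Cdh5, the gene of VE-cadherin, which PTPRB keeps free of phosphate, had a difference of -0.28 (limma adjusted p = 0.303), the same as Ptprb to 2 decimals. That of Fgd5, an endothelial guanine nucleotide exchange factor gene, was -0.53 (limma adjusted p = 0.250). Of 9 ETS and related factor genes none was called either (median -0.04). Gata2, a factor of blood stem, mast and endothelial cells, averaged 10.13 in YFP+ and 8.91 in YFP- cells, with a difference of 1.22 and no overlap (limma adjusted p = 0.0627). It lay above the limit on all 4 YFP+ arrays and on 1 YFP- array. Klf4, a shear-responsive endothelial factor, had a difference of -0.79, also without overlap (limma adjusted p = 0.0934). Its level was above the limit on 1 YFP+ array and on all 4 YFP- arrays. Ets2 had a difference of -0.46 (limma adjusted p = 0.302).

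**Figure D4:**
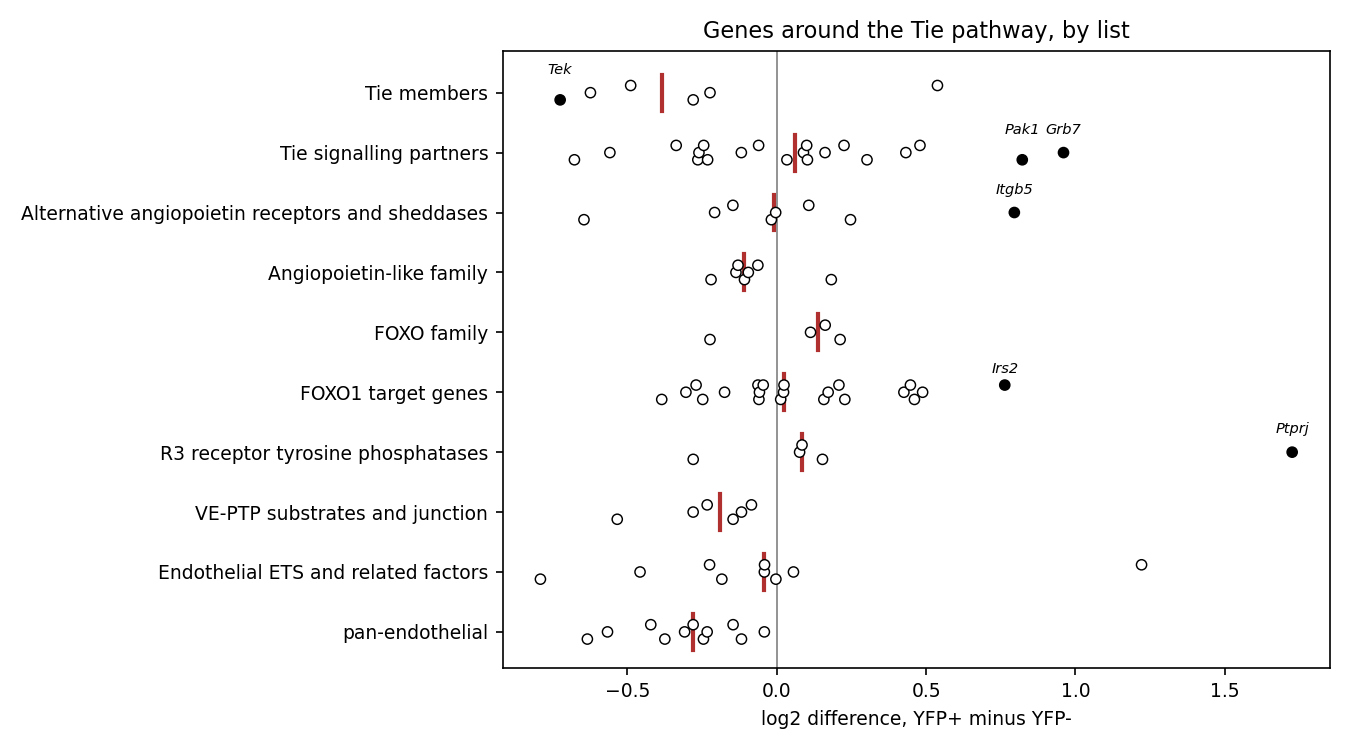
Log2 difference, YFP+ minus YFP- (horizontal axis), for each measured gene of 9 pathway lists and of the pan-endothelial markers (1 row a list); filled points passed the adjusted threshold, red bars are list medians. Tek is the filled point left of 0, and Pak1, Grb7, Itgb5, Irs2 and Ptprj are the filled points right of it.

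Genes with the most similar profiles were sought among 3052 named genes whose mean lay above the limit, by the root mean square difference of log2 values over the 8 arrays after each gene was centred on its own mean. These profiles share all arrays and the group difference. For Tek they were Cntfr (0.10 log2), Vsig2 (0.11) and Mertk (0.11), of which Vsig2 was called lower (difference -0.86, limma adjusted p = 0.0125). Tie1 came 83rd in closeness to Tek. The nearest to Tie1 were Peak1 (0.07), Fcgrt (0.09) and Rapgef3 (0.09), and Rapgef3 was called lower (difference -0.58, limma adjusted p = 0.0468). Those nearest to Ptprb were Map4k3 (0.04), Pitpnc1 (0.04) and Eng (0.04), the last an endothelial co-receptor gene for TGF-beta family ligands. Those nearest to Foxo1 were Zfp106 (0.07), Ywhab (0.08) and Mgrn1 (0.08). Ywhab encodes a member of the 14-3-3 proteins, a family known to hold phosphorylated FOXO1 in the cytoplasm.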

How the data were processed

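Collagenase digestion took 30 minutes and was followed by red cell lysis and sorting; RNA was isolated from the sorted cells with the PicoPure kit, and 100 pg of it was amplified and biotin-labelled with the 3' IVT Pico kit, per the labels' protocols. Which array model, summarization, normalization software and genome build were used was not given in the sources used here. Linear-scale intensity values, already normalized by the authors, were deposited with nearly equal medians on all arrays (160.1 to 165.6 units over the probe sets of genes), and no background subtraction is stated. A second deposited table holds the same values for all 8 arrays and, per the file headers, the authors' group means, their ratio and an unadjusted p-value of an unnamed test. The number of arrays limits the precision.

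These intensities were analysed as log2 values with no added normalization. A value was missing for 3 of 22206 gene probe sets. Probe sets with 1 symbol were kept (21370), symbols were updated through Entrez numbers to a RefSeq table of assembly GRCm38.p6 (20401 matched), and the brightest probe set of a gene was used, which gave 21160 genes. Samples were grouped by title, 4 biological replicates a group, and whether these are separate mice is not stated, so the p-values reflect only how these samples vary, which may be technical. The fit used R 4.3.3 with limma 3.58.1 (eBayes after lmFit, no covariate, two-sided, Benjamini-Hochberg over all genes, threshold 0.05), checked on simulated data. Python 3.11.15 was used for tables, exact tests and plots.

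The 6 genes and all lists were chosen with earlier results of these data known. Named genes are the 6, the called genes of each pathway list or, where none was called, up to 3 with the smallest adjusted p, and the 3 nearest profiles of each gene above the limit. Genes of the sort markers, Nck1, Nos3, the Akt genes, Angpt4, Mmp14, Cdkn1b, Ccng2, Foxo3, Dcn, Kit and the other phosphatases were added after their values were seen. So were Fbxo32, Igfbp1, Gpr182 and Flt1. Alternatives were cyclic loess or quantile normalization, a block for the replicate number, subtraction of the negative-control median with a floor of 16 units, leaving out dim genes, array weights, robust eBayes with a trend, averaging a gene's probe sets, testing probe sets apart, and leaving out each array. Of the listed genes, 4 (Ctnnb1, Egfl7, Gp1bb and Ass1) had no probe set with a single symbol and were not analysed here.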

Additional observations from a re-analysis of the deposited data

How the results depend on the processing

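The direction of each of the 6 genes was kept in every setting tried. Tek stayed called in all 9 settings that used all arrays (log2 difference -0.77 to -0.65, limma adjusted p 0.00933 to 0.0408, the replicate block included) and in 4 of the 8 fits without 1 array (-0.79 to -0.66, limma adjusted p 0.0233 to 0.0802). Tie1 was called with array weights (-0.54), with dim genes left out (-0.49) and in 1 of the 8 fits without 1 array (-0.54 to -0.45, limma adjusted p 0.0415 to 0.216). Angpt1, Angpt2, Ptprb and Foxo1 were called in none of the settings, and the dim Angpt1 and Angpt2 could not be fitted once dim genes were left out. With the negative-control median subtracted, Angpt1 lay at or close to the floor of 16 units on the YFP- arrays, so that setting gives no size for Angpt1 or its ratio to Angpt2. Called genes numbered 340 (269 higher and 71 lower), 695 with array weights (519 and 176), 213 with dim genes left out (100 and 113), and 115 to 636 without 1 array (107 to 502 and 8 to 134); lower calls were 38 after cyclic loess and 37 with the replicate block. Without 1 array the unequal change was -0.34 to -0.17 for Tek against Tie1, -0.50 to -0.38 for Tek against Ptprb and -1.36 to -0.90 for Angpt2 against Angpt1. The adjusted exact permutation p of the pairs with Ptprb and Angpt1 was 0.0857 without YFP- replicate 1, 2, 3 or 4 and 0.0286 to 0.0429 without a YFP+ replicate. In such fits a pair that alone reaches the smallest exact p of 0.0286 cannot pass over 3 pairs. Pairing by number left -0.45 and -1.16 with an adjusted sign-flip p = 0.188, where the smallest unadjusted exact p is 0.125. Foxo1 against the pan-endothelial mean turned to -0.044 without YFP+ replicate 2, in a range up to 0.18 without 1 array. The replicate number as a block is given here only, since same-numbered arrays deviated together weakly (correlations of 0.16, 0.02, 0.10 and 0.08 over genes for numbers 1 to 4) and no label says that a number marks a mouse. The block changed no call among the 6 genes. No array stood out from its group of 4 for any of the 6 genes by Dixon's test.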

Other observations

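Blood stem and progenitor markers, some of which are also expressed in endothelium, were mixed. Of 12 measured genes, 2 were called higher in YFP+ cells and none lower, and 8 differences were negative (median -0.06). Over all genes 1.27% were called higher, 0.336% lower, and 49.6% had a negative difference. Runx1, a transcription factor gene of blood formation, was higher by 2.49 log2 and Slamf1, a surface receptor gene of stem cells, by 1.09 log2 (limma adjusted p = 0.0316 and 0.0362). Runx1 was above the limit on 3 YFP+ arrays and no YFP- array, and at least 1.17-fold higher when set against the limit of the YFP- arrays. Slamf1 was below the limit on all 8 arrays, so its difference is between values within background. Kit, the stem cell factor receptor gene by which the transplanted cells were in part chosen, and which liver endothelium also expresses, had a difference of -0.52 without overlap (limma adjusted p = 0.171). Its levels were above the limit on all 8 arrays, as those of Tek were.

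In the authors' deposited table the ratio of mean intensities, YFP+ over YFP-, was 0.606 for Tek with an unadjusted p = 0.000388, and 0.712 for Tie1 with an unadjusted p = 0.00131. The authors' deposited table gives 0.826 for Ptprb (0.00231) and 0.861 for Foxo1 (0.0595), where the numbers in parentheses are unadjusted p-values.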
